A study of Mus musculus with 3 samples.

Results

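The autophagy core and receptor genes are 39 mouse genes that build, fill and close the autophagosome, and their RNA was measured in the chromatin fraction of macrophages. They were chosen by gene symbol and not by a measured value, though with earlier results of these data known. All 39 were found among the 55536 annotated genes, of which 22028 are protein-coding. By role they divide into 5 initiation genes, 6 genes of the class III phosphatidylinositol 3-kinase complexes, 6 genes that read the kinase's product or move lipid, 10 conjugation genes, 5 genes of the Atg8 family, 5 receptor genes and 2 genes that act on fusion.

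Autophagy encloses part of the cytoplasm in a double membrane and delivers it to lysosomes. A kinase complex starts the process, a lipid kinase marks the membrane with phosphatidylinositol 3-phosphate (PI3P), and ubiquitin-like enzymes attach Atg8 proteins to lipid in the growing membrane. Receptors tie cargo such as protein aggregates, mitochondria or bacteria to the Atg8 proteins, and SNARE proteins then fuse the closed vesicle with a lysosome. In macrophages these genes are known for the removal of intracellular bacteria, for restraint of inflammasome activity and, through a related route, for handling of phagosomes.

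The cells were bone-marrow-derived macrophages (BMDM), primary cells grown from the marrow of C57BL/6J mice. All 3 libraries form 1 group: the cells had 12 h of Lipid A, the TLR4-binding part of lipopolysaccharide, at 100 ng/ml, then 12 h of washout, and were collected at minute 0 of renewed 100 ng/ml Lipid A. RNA held on chromatin, which is rich in nascent and incompletely spliced transcripts, was sequenced after ribosomal RNA depletion, from 1000 ng, 250 ng and 500 ng of RNA in replicates 1, 2 and 3. No untreated control is analysed here, so the values are levels in this state and not responses to Lipid A, and no test between groups was possible. The 3 libraries carry the same donor identifier, and nothing in the labels says that they came from separate animals, so the spread given as SD may be partly technical.

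Expected counts per library, which are estimated reads assigned to genes, ranged from 11958978 to 19475027. The macrophage label held: 10 of 10 macrophage markers had at least 1 TPM in every library, with a summed level of 793, 1042 and 943.7 TPM in replicates 1, 2 and 3 (TPM is transcript abundance scaled for transcript length and for the library's total). Replicate 3 stood apart. A list of 11 fibroblast or stromal markers summed to 1.3, 2.57 and 596.4 TPM in replicates 1, 2 and 3, and the median of 82 ribosomal protein genes was 16.45, 21.44 and 71.97 TPM. Neutrophil markers summed to 0.71 to 1.54 TPM and B cell markers to 0.16 to 1.21 TPM, 0 of 8 and 0 of 6 reaching 1 TPM in every library. T cell markers summed to 6.98 to 10.33 TPM, nearly all of it Cd4, with Cd3e and Cd3g listed at 0. Endothelial markers summed to 8.93 to 13.89 TPM, with 3 of 6 at 1 TPM in every library. Those were Kdr, the highest, at 9.9, 3.17 and 5.11 TPM in replicates 1, 2 and 3, Egfl7 at 1.83 to 4.59 TPM and Pecam1 at 1.51 to 1.72 TPM. Cdh5 was at 0.04 to 0.06 TPM and Tie1 was listed at 0. Erythroid markers summed to 9.81 to 19.45 TPM, nearly all of it Alas2, with Hba-a1 and Hbb-bt listed at 0. In bulk RNA, fewer cells of a type and less RNA per cell cannot be told apart. For genes described as highest in replicate 3, mean levels are given with and without it. The part of the stromal signal in results that rest on replicate 3 was not tested.

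Nearly all of the autophagy genes were present on chromatin at substantial levels. At least 1 TPM in every library was reached by 38 of 39 genes, against 46.1% of protein-coding genes, and at least 10 TPM by 26 of 39, against 24.3%. The exception was Map1lc3a, an Atg8 gene. The median over the 39 genes was 13.79, 18.59 and 18.6 TPM in replicates 1, 2 and 3, and the median of their mean levels was 17.63 TPM, against 13.16 TPM for the 10150 protein-coding genes with at least 1 TPM in every library. On the log2(TPM + 1) scale the median was 4.16 ± 0.23 (SD, n = 3), against 3.81 ± 0.15 for those protein-coding genes. Of the 39 genes, 10 averaged 50 TPM or more, 21 lay between 10 and 50 TPM and 8 lay under 10 TPM. The counts of genes were 38 and 26 again with replicate 3 left out.

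The order of the levels was largely continuous. Of the 38 pairs of neighbours in that order, 33 had overlapping ranges over the libraries and so did not differ beyond their spread. The 5 gaps lay between Vmp1 and Sqstm1, Sqstm1 and Wdfy3, Becn1 and Atg4b, Atg4b and Optn, and Atg101 and Atg10. Spread between libraries was ordinary: the median coefficient of variation was 16.0% over the 39 genes and 16.3% over protein-coding genes with at least 1 TPM in every library. It passed 30% in 6 genes, Map1lc3a, Gabarapl1, Gabarap, Wipi1, Atg2a and Ulk1.

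**Figure D1:**
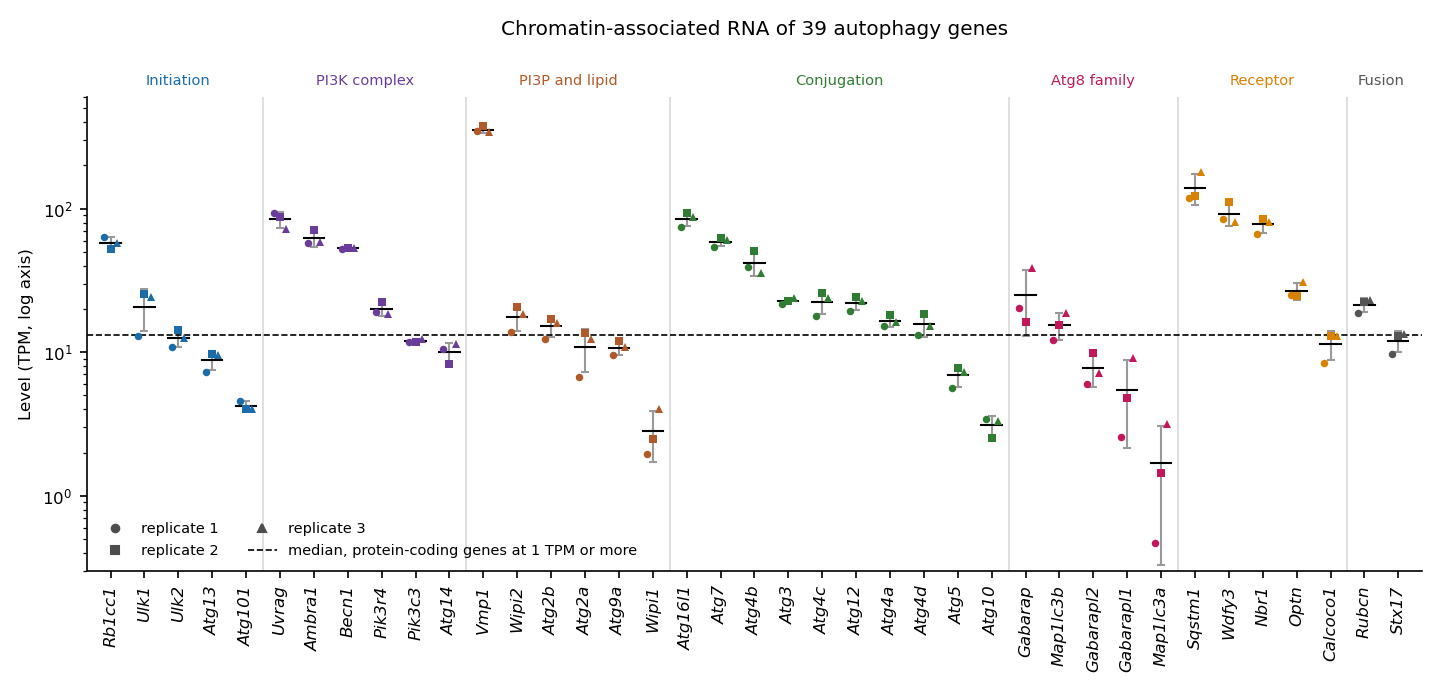
Level of each of the 39 genes in TPM on a log axis, grouped by role and sorted by mean within a role. Points are the 3 libraries, black bars the means and grey bars 1 SD; the dashed line is the median of 13.16 TPM over protein-coding genes with at least 1 TPM in every library. Vmp1 lies above all others, and Map1lc3a spans 0.47 to 3.16 TPM.

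Among the initiation genes, Rb1cc1, the scaffold that holds the kinase complex together (FIP200 in human), was the highest, with 63.88, 52.28 and 57.92 TPM in replicates 1, 2 and 3. Its catalytic partner Ulk1 had 12.94, 25.25 and 24.09 TPM, and the related kinase Ulk2 had 10.93, 14.18 and 12.64 TPM. All values of Ulk1 lay below those of Rb1cc1, by a log2 ratio of -1.53 ± 0.67 (SD, n = 3), whereas the ranges of Ulk1 and Ulk2 overlapped. Replicate 1 was the low library for Ulk1. Atg13, the regulatory subunit that carries signals from mTORC1, had 7.25, 9.77 and 9.59 TPM, and Atg101, which stabilises Atg13, had 4.6, 4.04 and 4.03 TPM. Atg101 rested on 30, 36 and 51 counts, with 95% Poisson intervals of 20.2 to 42.8, 25.2 to 49.8 and 38 to 67.1 counts; these intervals cover counting error only.

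In the lipid kinase complexes, the highest member was Uvrag, the subunit of the endosomal form of the complex, with 93.32, 88.07 and 72.31 TPM in replicates 1, 2 and 3. Atg14, the subunit that replaces Uvrag in the form acting on autophagosomes, had 10.45, 8.25 and 11.36 TPM. The 2 alternative subunits thus differed in total level in every library, Atg14 over Uvrag having a log2 ratio of -3.07 ± 0.38 (SD, n = 3). The gap did not extend to coding transcripts. In transcript levels made from the reads without a genome alignment, these held 4.7% ± 0.7 of Uvrag and 59.9% ± 8.6 of Atg14 (SD, n = 3 each). The 1 coding transcript of Uvrag had 6.30 TPM on average, and those of Atg14 had 3.8, 3.7 and 0.33 TPM. The shared scaffold Becn1 had 52.24, 52.84 and 53.59 TPM, and its coefficient of variation of 1.28% was the lowest of the 39. Ambra1, which binds Becn1 and regulates initiation, had 57.31, 71.5 and 58.2 TPM. The catalytic subunit Pik3c3 had 11.74, 11.8 and 12.43 TPM and its regulatory partner Pik3r4 had 19.21, 22.55 and 18.6 TPM, so that the enzyme itself was among the lower members of its complex. Becn1 shares 3104 exonic bases with Cntd1 on the opposite strand, which was at 1.6 ± 0.52 TPM, and Uvrag shares 1589 with the antisense gene Gm45187 at 6.06 ± 0.42 TPM. No source used here states whether the counting used strand, and reads of such partners can then not be told apart.

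Vmp1, a membrane protein of the endoplasmic reticulum that remodels lipid at sites of autophagosome formation, had the highest level of the 39 genes. Its levels were 349, 375 and 341 TPM in replicates 1, 2 and 3, and it held 23.8% of the summed mean TPM of all 39. It ranked above 99.7% of protein-coding genes. Vmp1 lies on the minus strand of chromosome 11 (chr11:86583865-86683836, mm10), and the last of its exons holds the hairpin of miR-21a, a microRNA known for its induction by inflammatory signals. The hairpin (chr11:86584067-86584158, minus strand) lies within exon 12 of 12 of the coding transcript Vmp1-201 (chr11:86583865-86585451). Its mature products are shown because the host gene has the highest level of the 39. They are RefSeq sequences on GRCm38.p6, with the seed, bases 2 to 8, in capitals.
mmu-miR-21a-5p: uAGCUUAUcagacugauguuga
mmu-miR-21a-3p: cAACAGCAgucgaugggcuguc
The gene row of the hairpin, Mir21a, is listed at 0 TPM in all 3 libraries, and its 92 bases are all shared with the Vmp1 exon. Reads over the hairpin can therefore not be assigned to precursor or host from these tables.

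Vmp1 RNA was spread over several annotated transcripts. In the transcript table made from the reads without a genome alignment (read-based), the processed transcript Vmp1-206 had 197, 171 and 165 TPM in replicates 1, 2 and 3, and the coding transcript Vmp1-201 had 131, 106 and 119 TPM. Processed transcripts, annotated without a coding frame, made up 63.4% ± 0.8 (SD, n = 3) of the gene and coding ones 36.6% ± 0.8. Vmp1-201, the only annotated transcript of the gene with an exon that holds the hairpin, made up 32.5% ± 0.8. The processed pseudogene Gm1969 is 91.2% identical to Vmp1 over 1222 of 2787 bases and was at 0.92 TPM on average.

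The other genes of this stage were lower. Wipi2, the PI3P reader that recruits Atg16l1, had 13.79, 20.76 and 18.34 TPM, and Wipi1, its relative, had 1.94, 2.49 and 4.05 TPM in replicates 1, 2 and 3. Wipi1 was below Wipi2 in every library, by a log2 ratio of -2.64 ± 0.44 (SD, n = 3), and its level in replicate 3 was the highest of the 3 libraries. The mean of Wipi1 was 2.827 TPM with replicate 3 and 2.215 TPM without it. The lipid transfer proteins Atg2a and Atg2b had 6.76, 13.55 and 12.46 TPM and 12.46, 17.17 and 15.87 TPM, with ranges that overlapped. Atg9a, the scramblase of the vesicles that seed the membrane, had 9.52, 11.94 and 10.82 TPM.

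In the conjugation machinery, Atg16l1, which places the conjugation complex on the membrane, was the highest with 74.67, 92.93 and 87.42 TPM in replicates 1, 2 and 3. Atg7, the activating enzyme shared by both conjugation reactions, followed with 54.3, 62.36 and 60.42 TPM. The conjugating enzyme for Atg8 proteins, Atg3, had 21.73, 22.82 and 23.72 TPM, whereas the conjugating enzyme for Atg12, Atg10, had 3.44, 2.51 and 3.33 TPM. Atg12 itself, the ubiquitin-like protein, had 19.35, 24.3 and 22.64 TPM, and its acceptor Atg5 had 5.59, 7.77 and 7.31 TPM. Atg12 was above Atg5 in every library, with a log2 ratio of 1.67 ± 0.09 (SD, n = 3) that was 0.58 ± 0.25 in the read-based table. The members of 1 reaction were thus far from equal in total level: the means of Atg16l1, Atg12 and Atg5 were 85.01, 22.1 and 6.89 TPM. By coding transcripts the order of Atg12 and Atg5 was the other way. Atg12-201 had 5.51 ± 0.75 and Atg5-201 had 7.14 ± 0.14 read-based TPM, and the highest coding transcript of Atg16l1, Atg16l1-201, had 13.4 ± 0.4 (SD, n = 3 each). Introns of Atg16l1 also hold 2 small Cajal body RNA genes, Gm25395 and Scarna6, whose reads lie within the same transcribed region.

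Of the 4 proteases that process Atg8 proteins and later release them, Atg4b, the most active of them on LC3, was the highest with 39.53, 50.76 and 35.51 TPM. Atg4c had 17.9, 25.76 and 23.89 TPM, Atg4a had 15.25, 18.28 and 16.32 TPM, and Atg4d had 13.09, 18.59 and 15.2 TPM. No library of another family member reached the lowest value of Atg4b. The log2 ratio to Atg4b was -0.89 ± 0.29 for Atg4c, -1.32 ± 0.18 for Atg4a and -1.42 ± 0.19 for Atg4d (SD, n = 3 each). This lead was one of all transcripts together. Coding transcripts held 17.8% ± 5.9 of the read-based TPM of Atg4b and 61.1% ± 1.4 of that of Atg4c. For Atg4a and Atg4d the shares were 37.2% ± 3.9 and 29.5% ± 1.7 (SD, n = 3 each). Single coding transcripts averaged 5.2, 4.1 and 1.7 TPM in Atg4b and 7.2 and 6.4 TPM in Atg4c. Atg4a is 99.3% identical to Atg4a-ps over 2115 of 2202 bases, so reads could be divided between them, and Atg4a-ps was listed at 0.06, 0.14 and 0.23 TPM. Atg4d shares 1405 exonic bases with the oppositely transcribed Kri1, which at 37.69 ± 2.99 TPM was higher than Atg4d.

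The promoter window of Atg3 is shown because it holds 2 copies of CACGTG, the E-box core bound by the TFEB and TFE3 factors that drive lysosomal and autophagy genes. The window runs from 250 bases before to 50 after the RefSeq start (chr16:45158579-45158878, plus strand, GRCm38.p6), with the motif in capitals.
Atg3 promoter: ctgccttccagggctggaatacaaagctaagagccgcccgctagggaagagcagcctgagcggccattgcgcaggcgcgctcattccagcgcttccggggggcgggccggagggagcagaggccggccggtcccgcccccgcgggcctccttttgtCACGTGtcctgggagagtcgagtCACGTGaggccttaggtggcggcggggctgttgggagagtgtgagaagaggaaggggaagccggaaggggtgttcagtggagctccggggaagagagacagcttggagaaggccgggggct
The motif reads the same on both strands. It was found in 5 of the 32 genes with a promoter entry, Atg3, Atg5, Atg7, Atg14 and Rubcn, against 8.09% of 27025 genes. The windows with the motif in Atg7, Atg14 and Rubcn lie wholly inside the annotated gene, downstream of its outermost start. The longer form TCACGTGA, which contains CACGTG, was found in 1 of the 32, Atg3, against 1.12% of genes, and the CLEAR element of 10 bases, which adds a G before it and a C after it, in 0 of the 32, against 0.37%. A match is a description of these letters in this window and no evidence of binding.

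The Atg8 family had the lowest median level and the widest spread between libraries. Gabarap, of the subfamily that acts in closure and fusion, was the highest, with 20.25, 16.16 and 38.88 TPM in replicates 1, 2 and 3. Map1lc3b, the LC3 protein used as a marker of autophagosomes, had 12.26, 15.38 and 18.83 TPM. Gabarapl2 had 6.05, 9.9 and 7.22 TPM and Gabarapl1 had 2.56, 4.8 and 9.08 TPM. Map1lc3a, the other LC3 gene, had 0.47, 1.44 and 3.16 TPM from 5, 11 and 42 expected counts, with 95% Poisson intervals of 1.62 to 11.7, 5.49 to 19.7 and 30.3 to 56.8 counts. Replicate 3 was the highest library for Gabarap, Gabarapl1, Map1lc3a and Map1lc3b, but not for Gabarapl2.

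In the 3 pairs compared, the ranges of the paralogs did not overlap, whereas Gabarapl1 and Gabarapl2 overlapped, as did Gabarap and Map1lc3b. Map1lc3a was below Map1lc3b by a log2 ratio of -3.44 ± 0.95, Gabarapl1 below Gabarap by -2.25 ± 0.62 and Gabarapl2 below Gabarap by -1.61 ± 0.86 (SD, n = 3 each). The size of each gap varied with the library: Gabarapl2 over Gabarap was -1.73, -0.70 and -2.41 on the log2 scale in replicates 1, 2 and 3. Without replicate 3, the mean level was 18.2 TPM for Gabarap, 3.68 TPM for Gabarapl1 and 0.955 TPM for Map1lc3a, against 25.1, 5.48 and 1.69 TPM with it. For Map1lc3b the mean was 13.82 TPM without replicate 3, against 15.49 TPM with it.

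The receptor genes formed the highest group. Sqstm1, the ubiquitin-binding receptor p62, had 118, 122 and 180 TPM in replicates 1, 2 and 3, replicate 3 lying above the other libraries; its mean was 140 TPM with replicate 3 and 120.3 TPM without it. Wdfy3, the large scaffold ALFY that links aggregates to the machinery, had 85.28, 111.5 and 80.84 TPM. Nbr1, a receptor related to p62, had 67.12, 85.32 and 80.62 TPM. Optn, a receptor for bacteria and mitochondria, had 25.03, 24.46 and 31.04 TPM, and Calcoco1, a receptor for endoplasmic reticulum and Golgi, had 8.35, 12.87 and 13.05 TPM. Of the 5, 3 thus had over 50 TPM in every library, while Calcoco1 sat below the median of the 39 genes. Sqstm1 was the higher gene of both of its pairs, with a log2 ratio of -0.83 ± 0.32 for Nbr1 over Sqstm1 and -2.36 ± 0.15 for Optn over Sqstm1 (SD, n = 3 each).

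Of the genes acting on fusion, Stx17, the SNARE of the completed autophagosome, had 9.74, 13.01 and 13.37 TPM. Rubcn, which inhibits the Uvrag form of the lipid kinase and is required for LC3-associated phagocytosis, had 18.61, 22.55 and 23.07 TPM. The inhibitor was above the SNARE in each library.

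**Figure D2:**
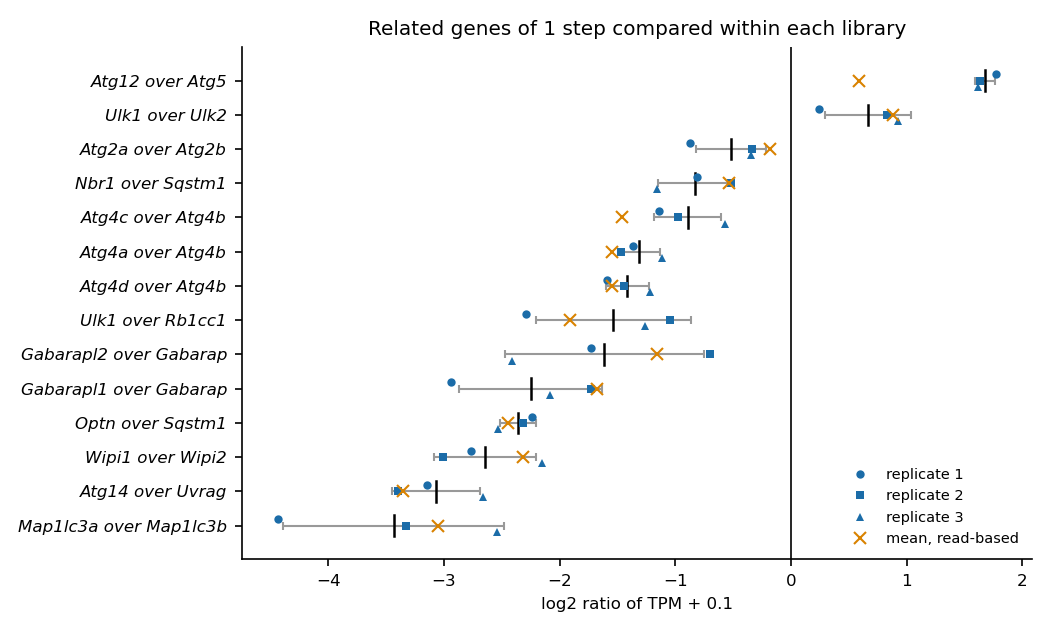
Log2 ratio of TPM + 0.1 between related genes of the same step, the first-named gene over the other. Blue points are the 3 libraries, black ticks the means, grey bars 1 SD and orange crosses the means from the read-based table; 12 of the 14 pairs have ranges of TPM that do not overlap, and all 14 have the same sign in the read-based table.

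Compared as groups of the 39 genes, the 5 receptor genes had the highest median and the Atg8 genes the lowest; 13 further receptor genes outside the 39 had a lower median of 10.12 TPM. The median of the mean levels was 77.69 TPM for receptors, 36.51 TPM for the lipid kinase complexes, 22.31 TPM for conjugation, 16.72 TPM for fusion, 13.04 TPM for PI3P and lipid transfer, 12.58 TPM for initiation and 7.72 TPM for the Atg8 family. The receptor median exceeded that of initiation by 2.53 ± 0.04, of fusion by 2.20 ± 0.06, of conjugation by 1.79 ± 0.03 and of the Atg8 family by 3.09 ± 0.16 on the log2(TPM + 1) scale (SD, n = 3 each), with the same sign in 3 of 3 libraries. In the read-based table these differences were 1.81, 2.21, 2.11 and 2.90, so the receptor genes led in either quantification.

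The order of the lower steps depended on the quantification. Conjugation exceeded initiation by 0.75 ± 0.07 and fusion exceeded initiation by 0.33 ± 0.10 on the log2(TPM + 1) scale (SD, n = 3 each), but in the read-based table the same differences were -0.30 ± 0.17 and -0.40 ± 0.18. The medians rest on few genes. Atg13 had 30.34 ± 4.62 TPM in the read-based table, against 8.87 ± 1.41 TPM in the gene table, a ratio of 3.42. Atg10 had 11.09 ± 1.09 against 3.09 ± 0.51 TPM, a ratio of 3.58, and Atg7 had 136.7 ± 10.8 against 59.03 ± 4.21 TPM, a ratio of 2.32. Over all 39 genes the read-based level was higher in 34, the median ratio was 1.32, and the Spearman correlation between both tables was 0.943 across genes, which share libraries and are not independent replicates. With 3 libraries, a two-sided exact sign-flip test cannot give a p below 0.25, so none is given.

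By TPM, retained-intron transcripts held over 50% of the RNA of most autophagy genes that have one annotated, but by read counts they did so in every library in 7 of 25, against 28.6% of protein-coding genes. Such transcripts keep an intron that other transcripts of the gene remove. They are annotated for 25 of the 39 genes, all 25 had at least 10 estimated counts in every library, and the other 14 have no such transcript in the annotation. As a share of a gene's read-based TPM, the median over the 25 was 56.95%, 56.64% and 52.09% in replicates 1, 2 and 3, or 55.2% ± 2.7 (SD, n = 3). It was 45.2% ± 1.6 over 7949 protein-coding genes of the same kind. A share of 50% or more in every library was seen in 14 of the 25, against 37.2% of those genes, or 36.8% of the 6400 among them with at least 1 TPM in every library.

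That excess over the background depended on the unit of the share. Retained-intron transcripts of the 25 genes have a median length of 903.5 bases, against 2692.5 bases for their coding transcripts, and TPM weights each read by the inverse of the length. By estimated counts the median share was 35.3% ± 3.7 over the 25 genes and 32.7% ± 1.7 over protein-coding genes (SD, n = 3 each). Only 7 of the 25 genes then had 50% or more in every library, which is 28%, against 28.6% of protein-coding genes. In the alignment-based transcript table, by TPM, 13 of the 25 passed 50%, against 33.6% of 7258 genes.

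**Figure D3:**
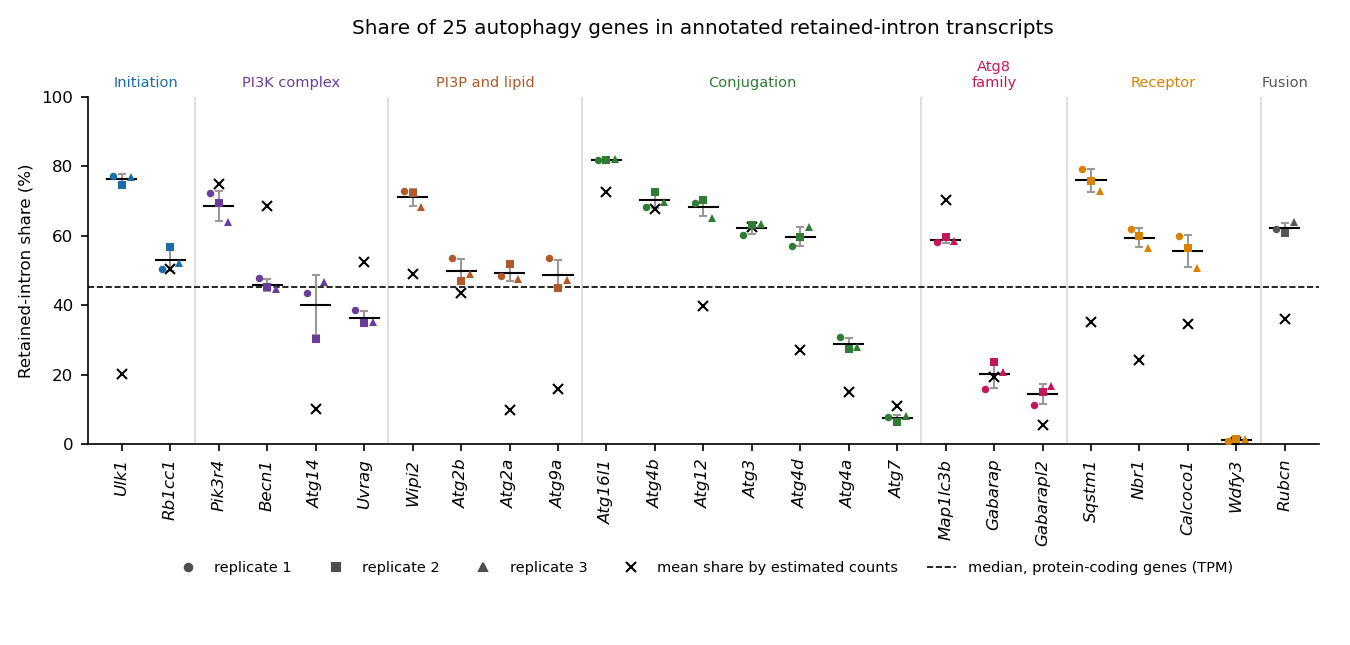
Share of each gene's read-based TPM in annotated retained-intron transcripts, in percent, for the 25 genes that have one, grouped by role. Points are the 3 libraries, black bars the means, grey bars 1 SD, crosses the mean share by estimated counts, and the dashed line the median of 45.2% over protein-coding genes. Atg16l1 is the highest at 81.9% and Wdfy3 the lowest at 1.26%.

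Atg16l1 had the highest share, at 81.86%, 81.94% and 82.01% of TPM in replicates 1, 2 and 3, and 72.5% ± 1.6 by estimated counts. Also over 60% by both units were Atg4b, at 70.3% ± 2.2 of TPM and 67.6% ± 0.6 of counts, Pik3r4, at 68.6% ± 4.2 and 74.9% ± 4.2, and Atg3, at 62.3% ± 1.8 and 62.6% ± 1.8 (SD, n = 3 each). In these 4 genes and in Map1lc3b, annotated retained-intron transcripts held most of the signal in every library in either unit. In Rb1cc1 they did so on average, with 53.1% ± 3.2 of TPM and 50.5% ± 2.4 of counts. Becn1 and Map1lc3b had larger shares by counts, 68.5% ± 2.6 and 70.3% ± 0.7, than by TPM, 45.8% ± 1.7 and 58.9% ± 0.8. The reverse held for Ulk1, with 76.3% ± 1.5 of TPM and 20.2% ± 1.2 of counts, and for Atg2a, with 49.3% ± 2.4 and 9.9% ± 0.5. In Sqstm1 the share was 79.18%, 75.92% and 72.79% of TPM in replicates 1, 2 and 3, but 35.3% ± 3.7 by counts.

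At the other end, Wdfy3 had 1.26% ± 0.28 of its TPM in its annotated retained-intron transcript, Atg7 had 7.36% ± 0.94 and Gabarapl2 had 14.3% ± 2.8 (SD, n = 3 each). These 3 genes were under 20% in every library, but in the alignment-based transcript table Atg7 had 28.2% ± 2.8. Wdfy3 and Atg7 span 236966 and 217518 bases, so a low share here says only that little RNA matched the annotated retained introns, not that little intronic RNA was present. The shares were stable between libraries, with a median SD of 2.43 percentage points and a largest SD of 8.64 points, in Atg14. Between steps the medians were 64.7% for initiation (2 genes), 62.3% for conjugation (7 genes), 62.2% for fusion (1 gene), 57.6% for receptors (4 genes), 50.5% for PI3P and lipid transfer (4 genes), 43.7% for the lipid kinase complexes (4 genes) and 20.2% for the Atg8 family (3 genes). By counts the lipid kinase complexes were highest at 60.4% and the Atg8 family lowest at 19.4%. In the alignment-based transcript table the lipid kinase complexes had 79.0% ± 1.6 (SD, n = 3) by TPM, the highest step, with Becn1 at 85.8% ± 4.7 and Uvrag at 72.2% ± 3.8. The Atg8 family was lowest in all 3 of these measures, while the rank of the lipid kinase complexes depended on the table and the unit.

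The donor splice sites of 6 retained introns are shown, from genes whose retained transcripts carry much of the RNA and, for Gabarap, from a gene where they do not. Each line has the last 20 exonic and the first 20 intronic bases of mm10 in the direction of transcription, with the GT that opens the intron in capitals, and introns are numbered in a coding transcript of the gene.
Intron 13 of 17, retained in Atg16l1-204, chr1:87785977-87786016, plus strand: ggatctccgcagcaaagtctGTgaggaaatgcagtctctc
Intron 4 of 17, retained in Atg16l1-206, chr1:87766163-87766202, plus strand: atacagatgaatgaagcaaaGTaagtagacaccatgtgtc
Intron 6 of 12, retained in Atg4b-202, chr1:93775681-93775720, plus strand: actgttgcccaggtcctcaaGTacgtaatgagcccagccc
Intron 4 of 11, retained in Becn1-210, chr11:101296238-101296277, minus strand: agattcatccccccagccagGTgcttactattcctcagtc
Intron 2 of 3, retained in Map1lc3b-202, chr8:121593526-121593565, plus strand: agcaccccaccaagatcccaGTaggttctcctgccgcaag
Intron 2 of 3, retained in Gabarap-204, chr11:69992424-69992463, plus strand: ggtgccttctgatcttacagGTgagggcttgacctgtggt
The retained transcripts had 20.6 TPM for Atg16l1-204, 11.2 TPM for Atg16l1-206, 7.93 TPM for Atg4b-202, 13.8 TPM for Becn1-210, 9.03 TPM for Map1lc3b-202 and 5.61 TPM for Gabarap-204, as read-based means over the 3 libraries. The 25 boundaries read for the 39 genes, some of them shared by several transcripts, all open with GT. The introns range widely in size here: intron 13 of Atg16l1 has 244 bases and intron 2 of Map1lc3b has 2440.

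Among transcripts of Sqstm1, the retained-intron transcript Sqstm1-207 had 72.2, 57.6 and 89.6 TPM in replicates 1, 2 and 3, and the coding transcript Sqstm1-202 had 26.4, 25.3 and 50.8 TPM. Sqstm1-202 was thus about level in replicates 1 and 2 and high in replicate 3, while Sqstm1-207 varied in all 3. The other coding transcript with a level above 0, Sqstm1-201, had 13.2, 11.7 and 13.8 TPM. In Gabarap, the coding transcript Gabarap-201 had 11.2, 8.51 and 19.5 TPM, against 4.46, 4.78 and 7.6 TPM for the retained Gabarap-204. Over the 25 genes with both kinds, the median log2 ratio of replicate 3 over 1 was 0.17 for coding transcripts and 0.04 for retained ones, beside 0.11 and -0.005 over 6400 protein-coding genes.

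**Figure D4:**
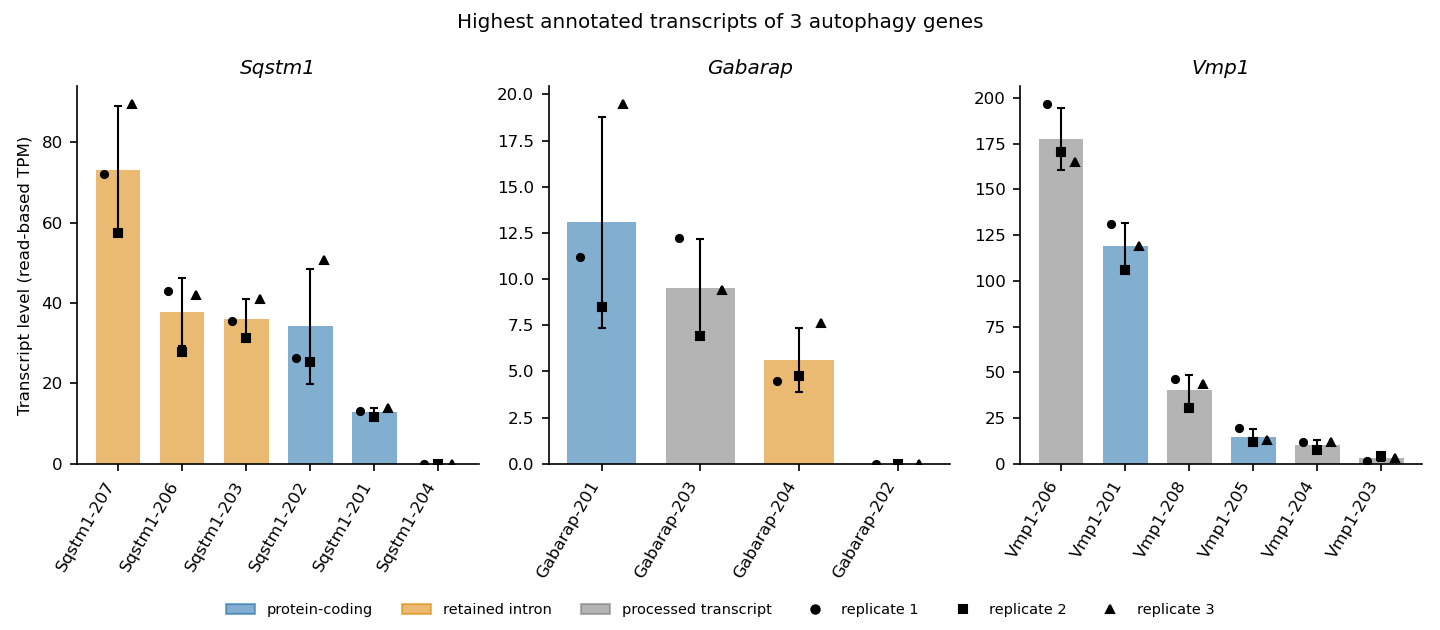
Level of the highest annotated transcripts of Sqstm1, Gabarap and Vmp1 in read-based TPM. Bars are means coloured by transcript type, black bars 1 SD and points the 3 libraries; in Sqstm1 retained-intron transcripts lead, in Gabarap the coding transcript, and in Vmp1 a processed transcript.

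Few of the genes differed between libraries by 1.5-fold or more. Counts were scaled with the TMM method to CPM, counts scaled to library size, with 0.1 added, and all 39 genes passed a mean of 10 counts. In replicate 3 over replicate 1, 6 genes were at least 1.5-fold higher, against 16.4% of 16209 genes, and 0 lower, against 7.55%. In replicate 3 over replicate 2, 5 were higher, against 13.5%, and 0 lower, against 5.92%. In replicate 2 over replicate 1, 4 were higher, against 11.0%, and 1 lower, against 8.64%. Among 12190 protein-coding genes, 2311 were higher and 506 lower in replicate 3 over 1, and 1914 and 420 in replicate 3 over 2. In replicate 2 over 1, 1252 of these were higher and 803 lower. The shares of higher genes are near the background in each comparison, and single libraries allow no test. The median log2 ratios over the 39 genes were 0.05, -0.02 and 0.12.

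The 4 genes below were at least 1.5-fold higher in replicate 3 than in both other libraries. Map1lc3a had a log2 ratio of 2.09 to replicate 1 and 1.5 to replicate 2, Gabarapl1 had 1.46 and 0.81, Gabarap had 0.83 and 1.2, and Wipi1 had 0.79 and 0.80. Sqstm1 had 0.51 and 0.69. The stromal and mitochondrial sums and the median of the ribosomal protein genes were also highest in replicate 3, though the mitochondrial genes mt-Atp6 and mt-Co3 were not. The list of 8 mitochondrial genes, whose RNA is made outside the nucleus, summed to 471, 255 and 763.5 TPM in replicates 1, 2 and 3. The ribosomal protein genes had a median log2 ratio of 1.5 to replicate 1 and 1.52 to replicate 2. The part of these signals in the result was not tested. The genes higher in replicate 2 than in replicate 1 were Ulk1, Atg2a, Map1lc3a and Gabarapl1, and the lower one was Atg10. Of these, Map1lc3a and Atg10 rest on fewer than 70 counts per library.

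Within the 39 genes, the highest ratios of replicate 3 over 1, those of Map1lc3a, Gabarapl1 and Gabarap, belonged to genes under 10 kb. All of them are of the Atg8 family, and the part of family or span was not tested. Wipi1, Atg2a and Calcoco1 also passed 1.5-fold and span 38637, 20668 and 15402 bases, whereas the short Atg101 had a log2 ratio of 0.03. The log2 ratio of replicate 3 over 1 had a Spearman correlation of -0.587 with the log10 of the genomic span across the 39 genes, and that of replicate 3 over 2 had -0.426. For replicate 2 over 1 it was -0.199. The genes share the same libraries and scaling, so these are descriptions. Over 12190 protein-coding genes the correlations were -0.114, -0.0199 and -0.0896. The 5 genes spanning under 10 kb, Map1lc3a, Gabarap, Atg101, Map1lc3b and Gabarapl1, had a median log2 ratio of 0.83 for replicate 3 over 1, beside 0.20 for 2925 protein-coding genes under 10 kb. Map1lc3a, the shortest, spans 1777 bases (chr2:155276297-155278073), and Gabarap spans 3809 bases (chr11:69991143-69994951).

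**Figure D5:**
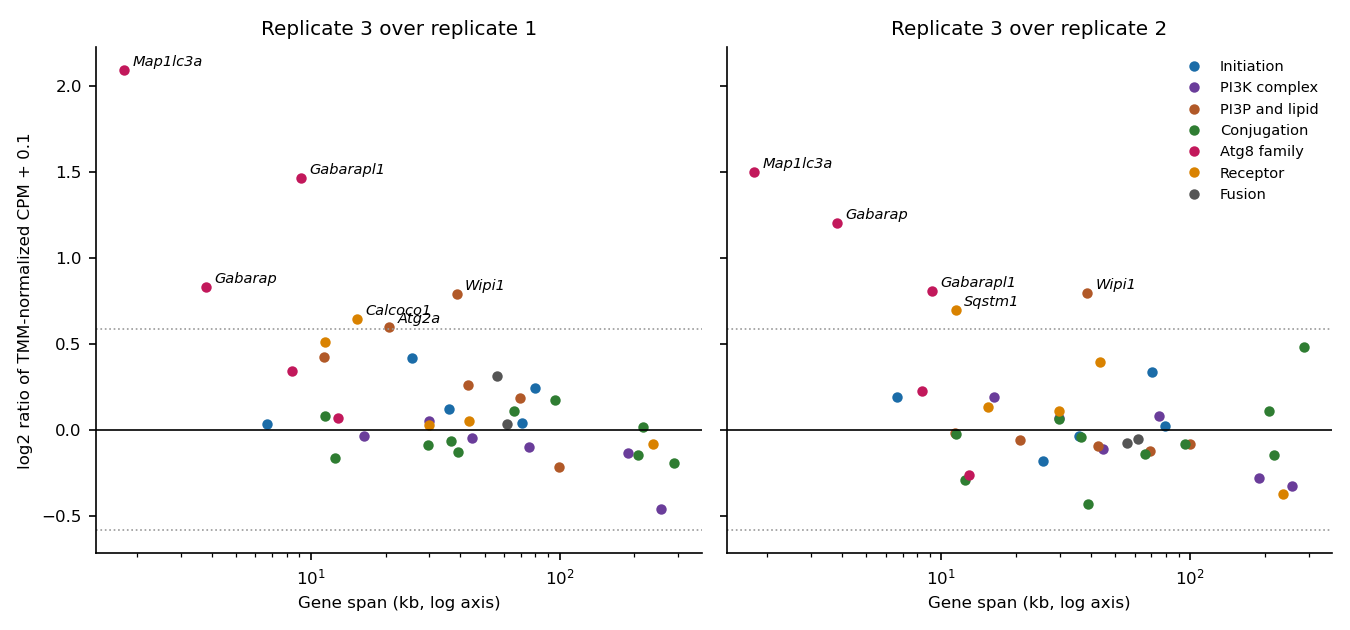
Log2 ratio of TMM-normalized CPM + 0.1 between single libraries against genomic span in kb on a log axis, 1 point for each of the 39 genes, coloured by role. Dotted lines mark 1.5-fold; replicate 3 over 1 has 6 genes above the upper line and replicate 3 over 2 has 5, and 0 genes lie under the lower line in either panel.

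Most of the further genes listed for the pathway were also present. For comparison, 46.1% of protein-coding genes had at least 1 TPM in every library and 24.3% had at least 10 TPM. Of 10 further core genes, 9 had at least 1 TPM in every library, led by Tecpr1, a tether of autophagosomes and lysosomes, at 216.8 ± 20.0 TPM, with Irgm1, an interferon-induced GTPase, at 85.2 ± 4.9 TPM. Wdr45b, a PI3P reader, had 24.5 ± 0.6 TPM, and Atg9b, the relative of Atg9a, was the lowest at 0.56 ± 0.30 TPM. All 13 further receptor genes had at least 1 TPM, 5 of them at least 10 TPM in every library, with a median of mean levels of 10.12 TPM, so the high level of the 5 receptor genes above did not extend to them. They ranged from Ncoa4, the ferritin receptor, at 67.86 ± 2.28 TPM and Tax1bp1 at 53.1 ± 3.8 TPM to Pink1, a mitochondrial kinase, at 2.77 ± 1.09 TPM. All 12 further fusion genes passed as well, with a median of mean levels of 36.36 TPM, Vps41, Vps16 and Vps39 of the tethering complexes having 61.95 ± 2.54, 60.1 ± 4.6 and 44.5 ± 4.8 TPM and Rilp 3.74 ± 0.07 TPM. Of 16 genes of the mTORC1 and AMPK kinases that control initiation, 14 passed. Rptor had 48.6 ± 10.7 TPM, Stk11 47.3 ± 1.8 TPM and Tsc2 43.1 ± 9.1 TPM, while the AMPK subunit Prkaa2 had 0.09 ± 0.10 TPM (SD, n = 3 for each value).

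Reads of some genes may be shared with a neighbour. Of the 39 genes, 13 share exonic bases with a gene on the opposite strand and 2 with another gene on the same strand, Vmp1 with Mir21a and Atg9a with Gm29253. Sqstm1 shares 580 bases with Mrnip at 0.61 ± 0.19 TPM, Rubcn 171 bases with Fyttd1 at 24.2 ± 0.8 TPM, and Wdfy3 392 bases with the antisense gene Gm20548 at 10.7 ± 2.1 TPM. Besides Vmp1 and Atg4a, Rb1cc1 has a near-identical stretch, 96.4% identical over 281 bases of a transcript of 656, in the pseudogene Gm13961, which was at 0.02 TPM.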

How the data were processed

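The gene table and the alignment-based transcript table of each library rest on a transcriptome alignment and the read-based transcript table on reads matched to an index, with mm10 and GENCODE M21, per the README files. The aligner, its version and the strand option are not given in these sources. The deposited expected counts and estimated counts are not normalized. In the deposited tables, TPM is scaled over every row. Spike-in and other rows without a gene took 1.31%, 0.476% and 0.240% of expected counts in replicates 1, 2 and 3 and were left out.

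Levels are TPM of the gene table; read-based TPM was summed per gene. Expected counts were rounded and scaled with edgeR 4.0.16 (TMM) in R 4.3.3; DESeq2 1.42.0 gave the alternative size factors. Other steps used Python 3.11.15. Of these steps, the scaling and the ratios between libraries were tested on simulated counts, and the others were not. No count test was run, since there is 1 group. No library was a duplicate of another: chi-square over degrees of freedom was 39.1 to 72.0 between their counts. All 39 genes were open to naming; from each further pathway list the 3 highest genes and the lowest were named, except 1 gene that is not reported here. The genes, lists and markers were chosen with earlier results of these data known.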

Additional observations from a re-analysis of the deposited data

How the results depend on the processing

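No paired analysis was possible because the libraries form 1 group. Leaving out each replicate in turn gave 38 to 39 genes at 1 TPM and 26 to 30 at 10 TPM in every library, a median retained-intron share of 54.4% to 56.8%, and the same direction for all 8 differences between steps. By the read-based quantification, 33 genes reached 10 TPM in every library and the median log2(TPM + 1) was 4.41. There the receptor median exceeded initiation by 1.81, conjugation by 2.11 and the Atg8 family by 2.90. Conjugation exceeded fusion by 0.10 and the Atg8 family by 0.79, but lay below initiation (-0.30), as did fusion (-0.40); the cause was not tested. TPM rescaled to the sum of protein-coding and long non-coding genes outside the mitochondrial genome gave 34 such genes, 826.4 TPM for Vmp1 against 354.8 TPM, a median of 5.33 and a receptor lead over initiation of 2.59. A pseudocount of 0.1 gave receptor leads of 2.62 over initiation, 1.83 over conjugation and 2.27 over fusion. Estimated counts in place of TPM gave a median retained-intron share of 35.3%.

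Between libraries, the genes higher in replicate 2 than 1 were 2 with DESeq2 size factors, 0 with read-based counts and 1 with 1 CPM added, and the lower ones 0 with the last 2 of these. Genes higher in replicate 3 than 2 were 3 with read-based counts. The depth limits Map1lc3a, Atg101, Atg10, Wipi1 and Gabarapl1, with under 70 counts in at least 1 library.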
